A study of Homo sapiens with 4 samples.

Results

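The genes examined here are 10 brakes on the ERK mitogen-activated protein kinase pathway: the dual-specificity phosphatases DUSP1, DUSP4, DUSP5, DUSP6 and DUSP7, the Sprouty genes SPRY1, SPRY2 and SPRY4, and the Sprouty-related genes SPRED1 and SPRED2. They were taken by symbol from the annotation column of the count table, and all 10 were found among its 63241 genes. The data are RNA-seq libraries of FT190 cells, a human epithelial line that the labels call ovarian and that was derived by immortalising secretory cells of the fallopian tube. In 2 of the 4 libraries the cells carried the PLKO vector as control, and in the other 2 they carried an RNA-interference hairpin (shRNA) that targets SMARCA4, an ATPase of the SWI/SNF (BAF) chromatin remodellers. All 4 carry the genotype label WT, the treatment label of the shRNA libraries names 1 hairpin, SMARCA4_sh1, and the study's title concerns SMARCA4 loss in ovarian cancer. No label gives separate cultures for the replicates. The p-values therefore rest on library-to-library spread, which may be technical.

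Growth factor receptors signal through RAS, RAF and MEK to ERK, and active ERK induces genes whose products switch the pathway off again. DUSP proteins of this group remove phosphates from MAP kinases. DUSP6 and DUSP7 act on ERK in the cytoplasm, whereas DUSP1, DUSP4 and DUSP5 are nuclear, with DUSP5 selective for ERK and DUSP1 and DUSP4 also acting on JNK and p38. Sprouty proteins act upstream, between receptors and RAF, and SPRED proteins bring the RAS-inactivating protein neurofibromin (NF1) to the membrane. Several of these transcripts, DUSP6 and SPRY4 among them, are commonly read as a record of ERK output.

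Total counts ran from 27137414 to 33641343 per library and mitochondrially encoded transcripts took 3.08% to 4.06% of them. SMARCA4 itself stood at 171 and 162 CPM (counts scaled to a common library total) in the controls and at 34.0 and 36.3 CPM in the shRNA libraries, a log2 fold change of -2.24 ± 0.052 (SE; edgeR adjusted p = 1.86e-07). Here and below, the edgeR adjusted p is from the quasi-likelihood test, adjusted by Benjamini-Hochberg across the 18781 genes tested, a log2 fold change is shRNA over control with 2 libraries in each group, and a gene rose or fell where that p was under 0.05. Against the epithelial label, KRT7, KRT8, KRT18 and PAX8 were present (KRT8 at 558 to 773 CPM, PAX8 at 57.4 to 63.5 CPM), but EPCAM reached no more than 0.56 CPM, KRT19 no more than 0.15 CPM and CDH1 no more than 4.70 CPM. Of the other epithelial markers, MSLN (9.11 to 15.2 CPM) and WT1 (13.8 to 18.4 CPM), which rose, were present. OVGP1 reached no more than 0.25 CPM. Of the fibroblast and smooth muscle markers, the collagen gene COL1A1 stood at 1540 to 2004 CPM and LUM at 107 to 237 CPM. ACTA2 (12.1 to 39.8 CPM), PDGFRB (15.2 to 28.0 CPM) and CNN1 (2.90 to 19.1 CPM) were also present. MYH11 was at 2.90 to 3.84 CPM. COL1A2 (0.036 to 0.30 CPM), COL3A1 (0.069 to 0.24 CPM), DCN (0 to 0.062 CPM) and DES (0 to 0.52 CPM) were near 0. The summed level of the 10 epithelial markers was 1762 to 1867 CPM in controls and 1271 to 1273 CPM in shRNA libraries, and that of 10 fibroblast and smooth muscle markers 2274 to 2321 and 1681 to 1811 CPM. Of these 2 marker lists 4 of 8 and 6 of 7 tested members fell and 1 and 0 rose. Of all genes tested 15.8% fell and 13.8% rose (20.1% and 18.4% of those with a mean of at least 5 CPM). The part of the marker shifts in the results below was not tested. Summed immune markers (24.0 to 26.7 CPM, of which the lysosomal gene CD68 gave 21.7 to 24.3) and endothelial markers (1.00 to 1.34 CPM) had overlapping groups. Summed ciliated cell markers stood at 7.20 and 7.38 CPM in controls and at 7.42 and 7.57 CPM in shRNA libraries, without overlap. Most of this sum was DNAH5, at 6.13 to 6.88 CPM, whose own groups overlapped. Replicate libraries were not copies of each other: the chi-square of their counts per degree of freedom was 6.94 between controls and 1.96 between shRNA libraries. This cannot show whether they came from separate cultures. Each library was counted as 1 sample, and the test assumes the same spread in both groups.

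All 10 feedback genes passed the filter on low counts. 6 rose (DUSP1, DUSP5, DUSP6, SPRY2, SPRED1 and SPRED2), 1 fell (DUSP4) and 3 did not pass the test (DUSP7, SPRY1 and SPRY4). Of all genes tested, 13.8% rose and 15.8% fell, 29.7% in all. Among the 11985 genes whose mean reached 5 CPM, as 9 of these 10 did, 18.4% rose and 20.1% fell, 38.5% in all. The 10 genes were chosen with earlier results of these data known, so this share describes them and is not a test of the group. Their median log2 fold change was 0.33, against -0.0045 over all genes tested, and 9 of 10 had a value above 0. In all 10 the values of the 2 groups did not overlap, which held for 65.9% of all genes tested. In bulk RNA a change in the share of cells that express a gene and a change in its RNA per cell cannot be told apart.

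**Figure D1:**
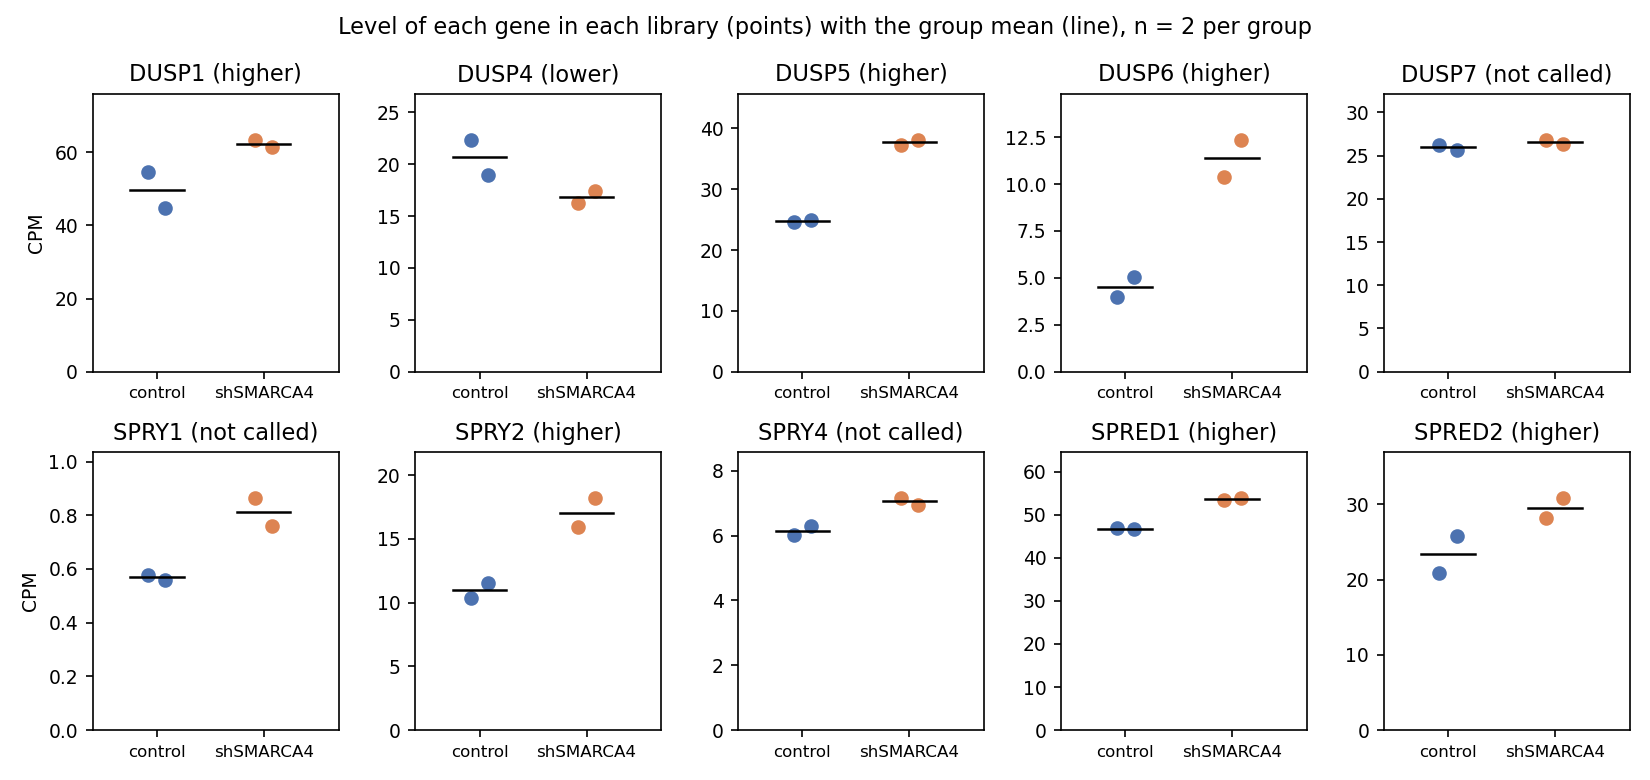
Level of each of the 10 genes in CPM (vertical axes, each from 0) in the 2 control and 2 shRNA libraries (points), with group means (lines). DUSP6 lies at 3.96 and 5.02 CPM in controls and at 10.4 and 12.4 CPM in shRNA libraries, and DUSP7 differs least, between 25.7 and 26.8 CPM in all 4.

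Per base of exon, these genes covered a range from near the bottom of the tested transcriptome to its upper part. In control cells DUSP1 was the most abundant at 24.8 CPM per kilobase of exon, above 83.9% of genes tested by this measure, where the median gene stood at 4.92. It was followed by DUSP5 (10.01), DUSP7 (7.74), SPRED1 (6.45), SPRED2 (5.18), SPRY2 (4.81), DUSP4 (3.73), SPRY4 (1.25), DUSP6 (1.24) and SPRY1 (0.22), all as mean CPM per kilobase. The 2 control libraries of SPRED2 (4.63 and 5.73) overlapped those of SPRY2 (4.55 and 5.06), and those of DUSP6 (1.09 and 1.39) those of SPRY4 (1.23 and 1.28), so the order within these pairs was not resolved. In shRNA cells the order changed: SPRY2 (7.47 CPM per kilobase) moved up among SPRED1 (7.39) and DUSP7 (7.92), with overlapping libraries, and DUSP6 (3.14) drew level with DUSP4 (3.04). DUSP1 and DUSP5 stayed first and second (31.1 and 15.3 CPM per kilobase), and SPRY1 stayed last (0.31).

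**Figure D2:**
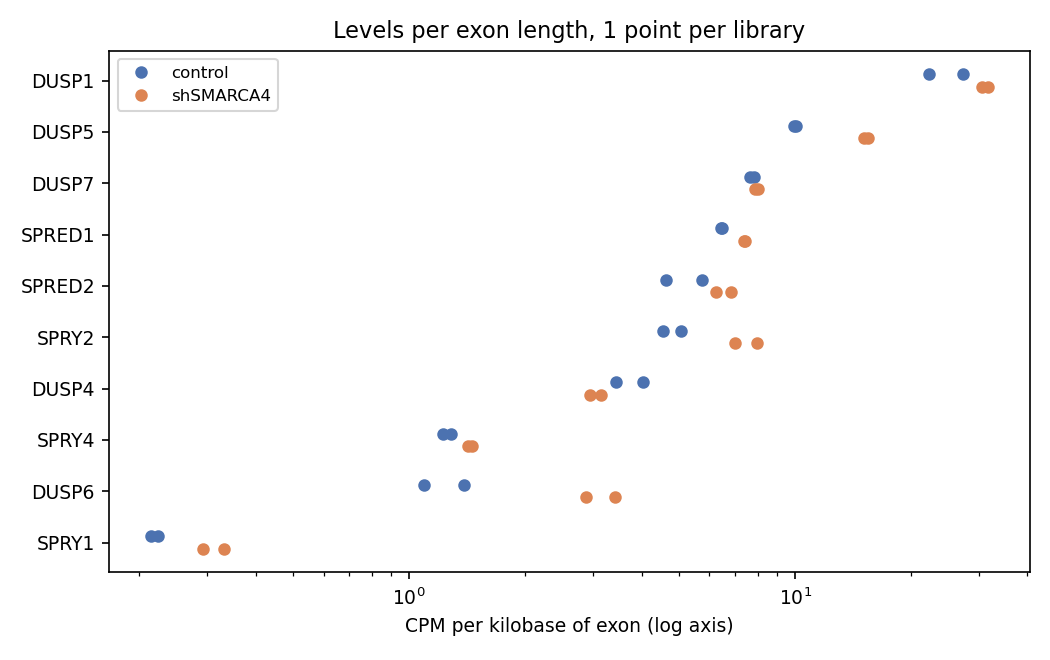
Level of each gene as CPM per kilobase of exon (horizontal log axis), 1 point per library, control in blue and shRNA in orange, ordered by the control mean. DUSP6 moves from beside SPRY4 (1.24 and 1.25) in controls to beside DUSP4 (3.14 and 3.04) in shRNA libraries.

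The sequence upstream of the start site is shown for the members of largest rise that could be matched, DUSP6 and SPRY2, and for DUSP1, the only gene in which a searched motif was found. Each is the 250 bases before the RefSeq start on GRCh38.p14, 5′ to 3′ on the strand of the gene, and capitals mark motif matches. 8 of the 10 genes had an entry; DUSP4 and DUSP5 were not matched. DUSP6 is chr12:89352502-89352751, SPRY2 chr13:80341127-80341376 and DUSP1 chr5:172771196-172771445, all on the minus strand.
DUSP6: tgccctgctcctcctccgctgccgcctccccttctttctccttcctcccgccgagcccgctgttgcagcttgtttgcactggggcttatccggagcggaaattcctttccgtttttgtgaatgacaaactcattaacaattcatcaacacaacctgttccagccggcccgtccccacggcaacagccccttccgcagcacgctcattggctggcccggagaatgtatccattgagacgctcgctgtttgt
SPRY2: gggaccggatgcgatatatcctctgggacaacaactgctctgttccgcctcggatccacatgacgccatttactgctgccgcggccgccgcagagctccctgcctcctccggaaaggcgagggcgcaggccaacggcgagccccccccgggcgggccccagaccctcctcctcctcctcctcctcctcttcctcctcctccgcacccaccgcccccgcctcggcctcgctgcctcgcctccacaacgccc
DUSP1: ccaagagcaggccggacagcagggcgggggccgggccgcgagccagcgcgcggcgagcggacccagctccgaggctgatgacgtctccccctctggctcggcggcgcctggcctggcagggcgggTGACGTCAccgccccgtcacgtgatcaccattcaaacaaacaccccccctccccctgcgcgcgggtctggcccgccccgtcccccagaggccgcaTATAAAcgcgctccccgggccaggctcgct
The motifs searched, on both strands, were the cyclic AMP response element TGACGTCA, the AP-1 site TGANTCA, the ETS site CCGGAAG, the CArG box of SRF, and the TATA sequence TATAAA. DUSP1 held TGACGTCA from 125 to 118 bases and TATAAA from 30 to 25 bases before its start. The other 7 matched genes held none of these motifs in this window. RefSeq held 3 entries for SPRY2 and 2 each for SPRY1 and SPRED2. Only the entry nearest the start of the counted transcript was searched. For SPRY4 the start used lay 774 bases from that of the counted transcript. Over all 35116 windows of the RefSeq table, TGACGTCA occurred in 1.65%, TGANTCA in 6.57%, CCGGAAG in 8.52%, the CArG box in 1.16% and TATAAA in 10.7%. A match or its absence describes these letters only.

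Of the cytoplasmic ERK phosphatases, DUSP6 rose and DUSP7 did not pass the test. DUSP6 (ENSG00000139318.8, chr12:89347235-89352501 on the minus strand of hg38) was at 3.96 and 5.02 CPM in control libraries 1 and 2, and at 10.4 and 12.4 CPM in shRNA libraries 1 and 2. Both shRNA libraries were above both controls by more than the gap within either group. The means were 4.49 ± 0.748 and 11.4 ± 1.39 CPM (SD, n = 2 in each group), a 2.53-fold rise. The log2 fold change was 1.34 ± 0.14 (SE), with a 95% interval of 1.02 to 1.66 (edgeR adjusted p = 0.000208), and 301 genes, 1.603% of those tested, changed by at least as much in either direction. Raw counts behind these levels were 130, 162, 301 and 341.

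The counting took reads of both strands, and DUSP6 overlaps a long non-coding RNA on the opposite strand, ENSG00000274021 (chr12:89351015-89353271), which held 20, 21, 55 and 57 counts in the same order of libraries. Reads of the 2 genes cannot be told apart where they overlap. With all counts of the non-coding gene taken away from DUSP6, its log2 fold change was 1.28 ± 0.16 (edgeR adjusted p = 0.000422). DUSP7 (ENSG00000164086.10, chr3:52048919-52056571, minus strand) stood at 26.3 and 25.7 CPM in controls and at 26.8 and 26.4 CPM in shRNA libraries. The 4 values lay close together, and the 95% interval of the fold change was 0.93 to 1.12 (log2 fold change 0.03 ± 0.060, edgeR adjusted p = 0.711).

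The nuclear phosphatases moved in both directions, DUSP5 and DUSP1 higher and DUSP4 lower. DUSP5 (ENSG00000138166.6, chr10:110497907-110511533, plus strand), selective for ERK, was at 24.5 and 24.9 CPM in controls and at 37.3 and 38.1 CPM in shRNA libraries. Replicates were within 1 CPM of each other in both groups. The means were 24.7 ± 0.243 and 37.7 ± 0.565 CPM (SD, n = 2), 1.53-fold, and the log2 fold change of 0.61 ± 0.056 had the smallest adjusted p of the 10 genes (edgeR adjusted p = 9.45e-05).

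DUSP1 (ENSG00000120129.6, chr5:172768096-172771195, minus strand), an immediate-early gene also known as MKP-1, was at 54.6 and 44.7 CPM in controls and at 63.4 and 61.3 CPM in shRNA libraries. The controls differed from each other by more than control 1 differed from the shRNA libraries. The rise was 1.26-fold, with a log2 fold change of 0.33 ± 0.082 (edgeR adjusted p = 0.0159). It was 0.19 without control 2 and 0.49 without control 1.

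DUSP4 (ENSG00000120875.9, chr8:29333064-29350684, minus strand), a nuclear phosphatase of ERK, JNK and p38, was at 22.3 and 19.0 CPM in controls and at 16.3 and 17.4 CPM in shRNA libraries. Control 2 lay nearer to shRNA library 2 than to control 1. The fold change was 1.23 toward control, a log2 fold change of -0.30 ± 0.092 with a 95% interval of -0.51 to -0.09 (edgeR adjusted p = 0.0385). This call was lost without control 1, where the value was -0.17 (edgeR adjusted p = 0.106), and without shRNA library 1, where it was -0.24 (edgeR adjusted p = 0.163). It was also lost with library totals in place of trimmed-mean scaling, with DESeq2 and with no filter on low counts.

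Set side by side per kilobase, the 5 phosphatases summed to 50.1 and 44.8 CPM per kilobase in controls and to 60.5 and 60.4 in shRNA libraries. DUSP1 made up 49.7% to 54.3% of this sum in all 4 libraries. The share of DUSP6 was 2.18% and 3.09% in controls and 4.74% and 5.65% in shRNA libraries, and that of DUSP4 was 8.04% and 7.64% against 4.86% and 5.19%. The share of DUSP5 went from 19.8% and 22.5% to 24.97% and 25.5%, and that of DUSP7, whose level differed least, from 15.6% and 17.1% to 13.2% and 13.01%. These shares are of transcripts and, since they sum to a whole, are not independent of each other.

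Of the Sprouty genes, which code for inhibitors between receptor and RAF, SPRY2 rose. SPRY2 (ENSG00000136158.12, chr13:80335976-80341126, minus strand) was at 10.4 and 11.6 CPM in controls and at 15.9 and 18.2 CPM in shRNA libraries. The lower shRNA library was well above the higher control. The means of 10.98 ± 0.823 and 17.0 ± 1.61 CPM (SD, n = 2) differed 1.55-fold, with a log2 fold change of 0.63 ± 0.098 and a 95% interval of 0.41 to 0.86 (edgeR adjusted p = 0.00149).

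SPRY4 (ENSG00000187678.10, chr5:142310430-142325021, minus strand) was at 6.01 and 6.29 CPM in controls and at 7.14 and 6.96 CPM in shRNA libraries. Both shRNA libraries were higher, but the difference did not pass the test (log2 fold change 0.20 ± 0.11, edgeR adjusted p = 0.211). Its 95% interval, -0.05 to 0.45, reached up to a 1.36-fold higher level. SPRY1 (ENSG00000164056.11, chr4:123396795-123403755, plus strand) was barely present, with 19 and 18 counts in controls and 25 and 21 in shRNA libraries. These are 0.58 and 0.56 against 0.86 and 0.76 CPM. Its log2 fold change of 0.51 ± 0.29 had a 95% interval of -0.15 to 1.17 (edgeR adjusted p = 0.223), which held both 0 and the value of SPRY2, so such a difference was not detectable at this depth.

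Both SPRED genes, whose products recruit neurofibromin to RAS, rose by small amounts. SPRED1 (ENSG00000166068.13, chr15:38252836-38357249, plus strand) was at 47.0 and 46.6 CPM in controls and at 53.4 and 53.8 CPM in shRNA libraries. Replicates differed by less than 1 CPM, and the rise was 1.15-fold (log2 fold change 0.20 ± 0.047, edgeR adjusted p = 0.0128). SPRED1 did not pass under DESeq2 or when low counts were not filtered. Nor did it pass without either shRNA library, where the spread came from the control pair alone. Its log2 fold change stayed between 0.19 and 0.25 over the 13 alternative settings. SPRED2 (ENSG00000198369.10, chr2:65310851-65432599, minus strand) was at 20.9 and 25.8 CPM in controls and at 28.2 and 30.8 CPM in shRNA libraries. The controls lay farther apart than control 2 and shRNA library 1 did. Its log2 fold change was 0.34 ± 0.098 (edgeR adjusted p = 0.0294), 0.19 without control 1 and 0.50 without control 2. The call was lost with no filter on low counts and without shRNA library 2, where the value was 0.27 (edgeR adjusted p = 0.0550).

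Together the 5 Sprouty and SPRED genes summed to 17.1 and 18.7 CPM per kilobase in controls and to 22.4 and 23.9 in shRNA libraries. The 10 genes as a whole summed to 217 and 210 CPM in controls and to 260 and 266 CPM in shRNA libraries. DUSP1 and SPRED1 gave the largest parts of this sum, so it says little about DUSP6 or SPRY1.

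**Figure D3:**
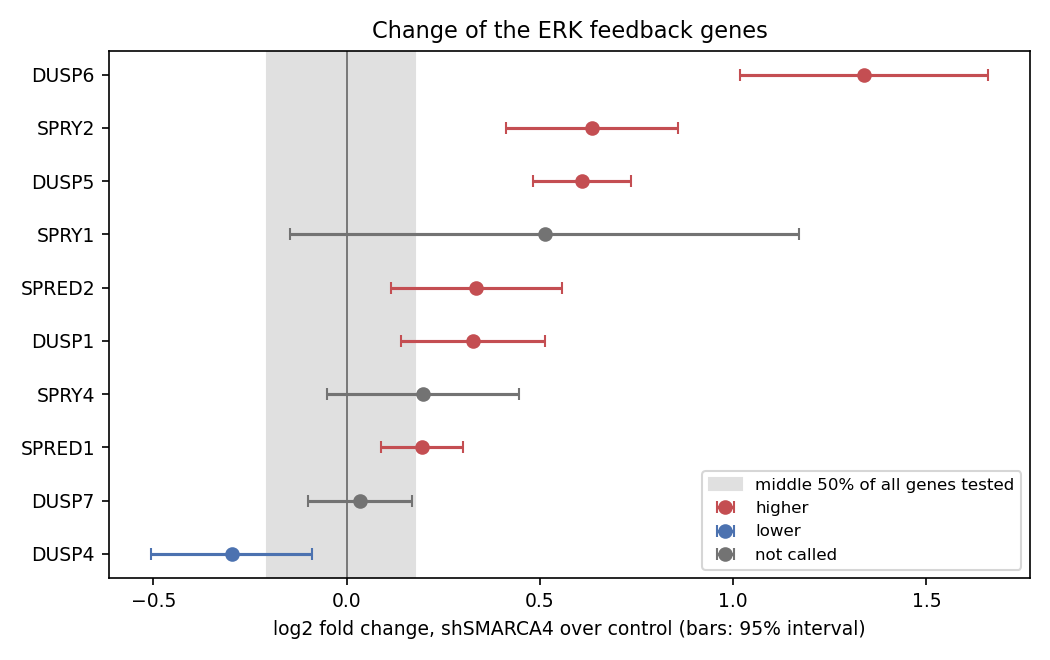
Log2 fold change of shRNA over control for each gene (points) with its 95% interval (bars), coloured by whether it passed the test higher, lower or not, over the middle 50% of all genes tested (grey band, -0.21 to 0.18). The intervals of DUSP6, SPRY2 and DUSP5 lie wholly to the right of the band, and that of DUSP4 overlaps it.

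Over the 13 alternative settings, DUSP5, DUSP6 and SPRY2 passed the test in all 13. DUSP6 ranged from 1.18 to 1.52, SPRY2 from 0.54 to 0.74 and DUSP5 from 0.59 to 0.66 on the log2 scale. DUSP7 and SPRY4 passed in none of the 13, and SPRY1 in none of the 12 that tested it. The other 4 genes (DUSP1, DUSP4, SPRED1 and SPRED2) passed in 12, 8, 9 and 11 of 13. The sign of the change was the same in every alternative that tested the gene, for each of the 10.

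**Figure D4:**
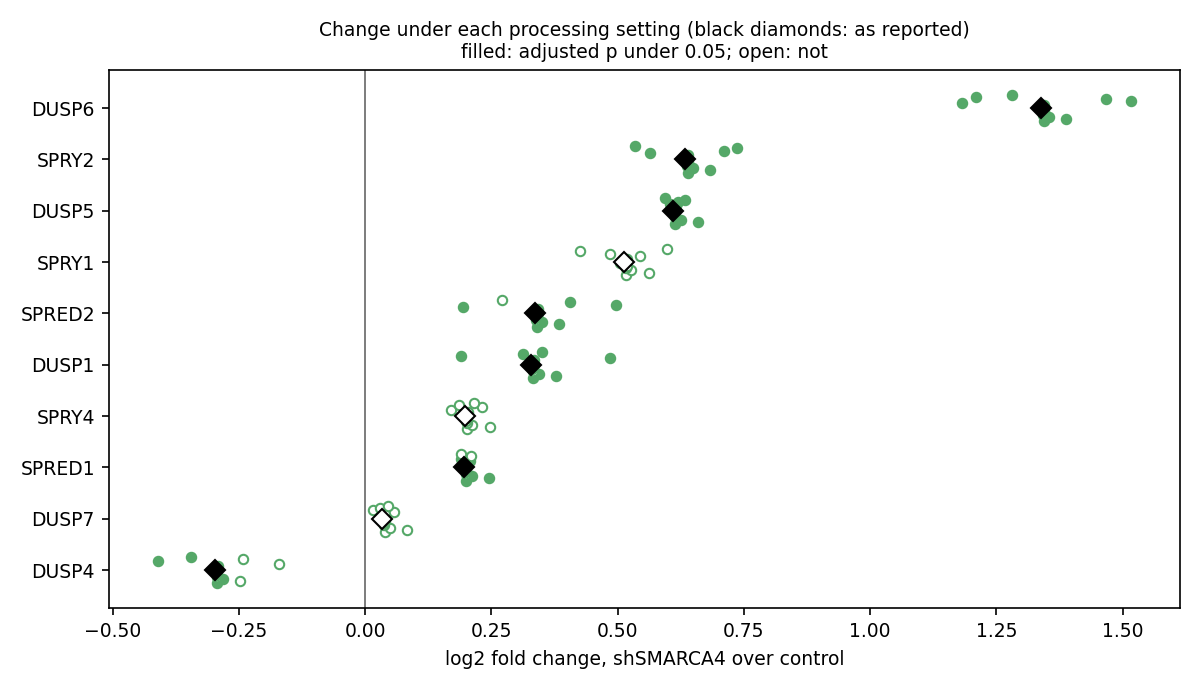
Log2 fold change of each gene as reported (black diamonds) and under each alternative (green circles), filled where the adjusted p was under 0.05 and open where it was not. DUSP6, SPRY2 and DUSP5 are filled throughout, and the open points of DUSP4 lie between -0.29 and -0.17.

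Of 5 other MAP kinase phosphatases, 1 fell, 0 rose and the median log2 fold change was -0.25, beside 29.7% of all genes tested, and 38.5% of those with a mean of at least 5 CPM, called in either direction. The inducible nuclear phosphatase DUSP2 fell (-0.63 ± 0.16, from 4.79 and 3.84 to 2.86 and 2.72 CPM), a call lost under DESeq2 and in the unfiltered table. The JNK and p38 phosphatases DUSP10 (-0.05 ± 0.071) and DUSP16 (0.07 ± 0.047) did not pass the test, at 18.7 to 20.1 and 51.7 to 55.5 CPM. SPRED3 stood at 3.51 to 4.21 CPM without a call (0.10 ± 0.14), and SPRY3 had between 0 and 3 counts per library and was not tested. Of 9 tested atypical dual-specificity phosphatases, small enzymes without the kinase-binding domain, 4 rose and 2 fell, beside the same shares, among them DUSP19 (1.03 ± 0.21) and DUSP18 (0.55 ± 0.13), which rose, and DUSP3 (-0.23 ± 0.057) and DUSP14 (-0.27 ± 0.084), which fell. Of these calls, that of DUSP18 was lost without shRNA library 1 and that of DUSP3 without shRNA library 2. DUSP14 did not pass without shRNA library 1 or control 1, and stood at -0.14 without the latter (edgeR adjusted p = 0.109).

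Upstream of the feedback genes, of 24 genes of the kinase cascade from adaptor to ERK and its RSK substrates, 4 rose, 8 fell and 12 did not pass the test, with a median of -0.03. Of all genes tested 29.7% were called, and 38.5% of those with a mean of at least 5 CPM. The kinase genes MAPK3 (-0.13 ± 0.064) and BRAF (0.00 ± 0.052) did not pass the test. The MEK genes MAP2K1 (-0.39 ± 0.053, from 73.3 and 72.2 to 57.8 and 52.9 CPM) and MAP2K2 (-0.18 ± 0.047) fell, as did the adaptor GRB2 (-0.19 ± 0.042) and the RSK gene RPS6KA2 (-0.72 ± 0.090), while the FGF receptor adaptor FRS2 rose (0.46 ± 0.045). The MAP2K2 call was lost under 5 of the alternatives, and that of GRB2 without shRNA library 1.

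Other brakes on RAS and ERK, from a list of 14, rose in 4 cases and fell in 2, with a median of -0.04, beside 29.7% of all genes tested called in either direction (38.5% with a mean of at least 5 CPM). The RAS GTPase-activating proteins RASA1 (0.88 ± 0.045, from 89.9 and 92.5 to 163 and 172 CPM) and RASA3 (0.44 ± 0.056) rose. NF1, the partner of SPRED proteins, rose by a small amount (0.13 ± 0.041, edgeR adjusted p = 0.0386), as did the FGF receptor inhibitor IL17RD (0.40 ± 0.13). The adaptor of a RAS-degrading ubiquitin ligase, LZTR1, fell (-0.20 ± 0.062). The calls of NF1, IL17RD and LZTR1 were lost with DESeq2, with no filter and without at least 1 library.

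Of 22 transcripts known to be induced by ERK outside the DUSP and Sprouty families, 9 rose and 1 fell, with a median of 0.24, beside 13.8% and 15.8% of all genes tested (18.4% and 20.1% with a mean of at least 5 CPM). MYC (0.70 ± 0.049), PHLDA1 (0.92 ± 0.094, from 29.7 and 37.8 to 62.1 and 66.0 CPM), the urokinase receptor PLAUR (0.51 ± 0.050), FOSL1 (0.38 ± 0.074) and IER3 (0.20 ± 0.050) rose and the neuropeptide precursor VGF (-0.97 ± 0.16) fell. FOSL1 was not called in the unfiltered table, nor IER3 there or without shRNA library 1. The early transcription factors EGR1 (0.19 ± 0.067) and FOS (0.21 ± 0.19) did not pass the test, although EGR1 was close to the threshold (edgeR adjusted p = 0.0561). CCND1 did not pass either (-0.10 ± 0.10), with controls at 179 and 134 CPM around shRNA libraries at 148 and 145 CPM. Its value was 0.13 without control 1 and -0.29 without control 2.

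Of 11 transcription factors downstream of ERK, 4 rose and 3 fell, beside 13.8% and 15.8% of all genes tested (18.4% and 20.1% of those with a mean of at least 5 CPM). The 3 PEA3-family ETS factors all rose: ETV4 (0.96 ± 0.086, from 9.27 and 9.11 to 17.2 and 18.5 CPM), ETV1 (0.97 ± 0.12, from 13.7 and 18.7 to 30.4 and 33.1 CPM) and ETV5 (0.29 ± 0.060), of which ETV5 lost its call when shRNA library 2 was left out. SRF, which binds the CArG box, fell (-0.89 ± 0.084, from 92.1 and 76.5 to 47.3 and 43.8 CPM), as did its ETS partner ELK3 (-0.42 ± 0.073) and the repressor ERF (-0.27 ± 0.054), the last not without shRNA library 2. Of the other ELK genes in the list, ELK1 rose (0.21 ± 0.051) and ELK4 did not pass the test (0.003 ± 0.043). CIC, the repressor that ERK inactivates and that holds ETV and DUSP6 genes low, stood at -0.18 ± 0.067 without a call (edgeR adjusted p = 0.0728). Its value was -0.08 without control 2 and -0.27 without control 1. These lists and the 10 feedback genes share the same 4 libraries, so their changes are not independent of each other.

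**Figure D5:**
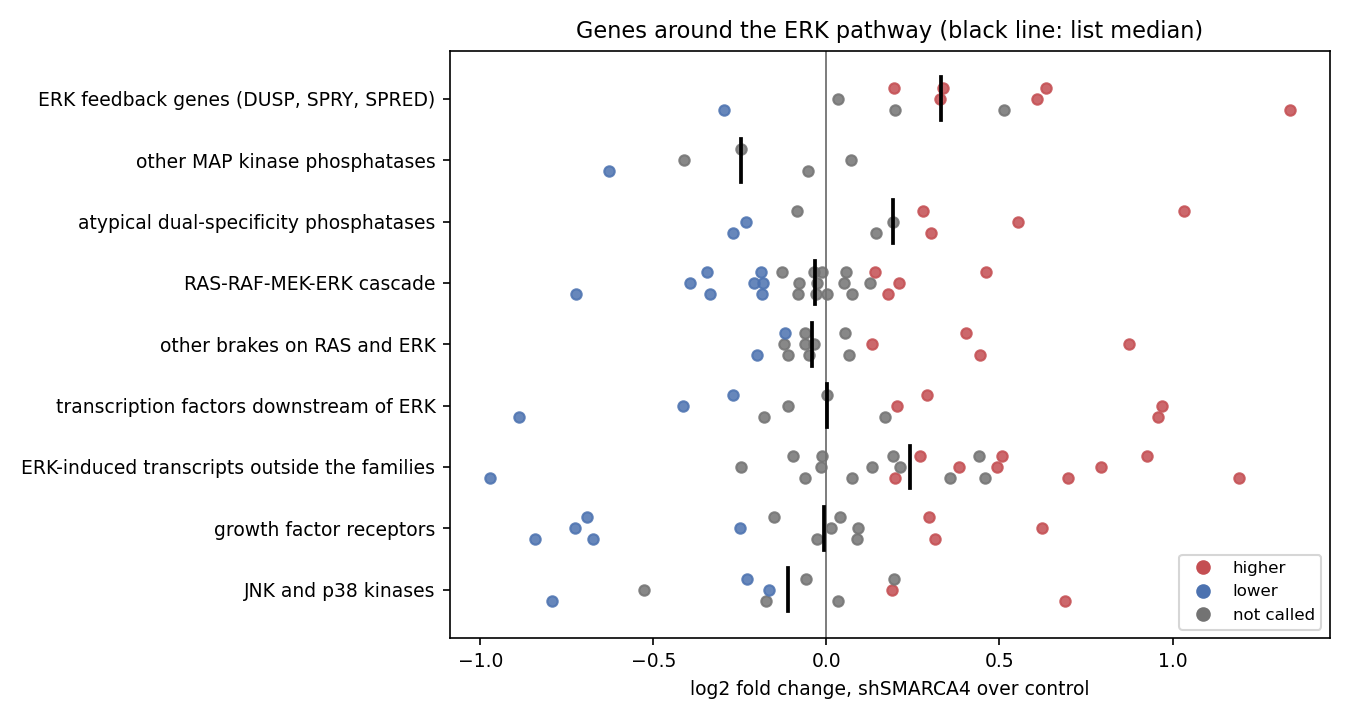
Log2 fold change of every tested gene in the lists around the ERK pathway (horizontal axis), 1 point per gene, coloured by whether it passed the test, with list medians as black lines. The feedback genes (median 0.33) and the other ERK-induced transcripts (0.24) lie mostly above 0, and the kinase cascade (-0.03) lies around it.

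By likeness of the 4-library profile (the distance between log2 CPM values centred on their mean, over the 10877 other protein-coding genes whose mean reached 5 CPM), DUSP5 was nearest to SLC19A2 (distance 0.025), ECE1 (0.032) and ADCY7 (0.034), whose log2 fold changes were 0.61, 0.59 and 0.63. DUSP4 was nearest to DUSP14 (0.027), PNKD (0.039) and AP1M2 (0.039), with log2 fold changes of -0.27, -0.27 and -0.28. With 4 libraries in 2 groups, such a distance mainly reflects the size of the difference between groups and describes only these libraries.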

How the data were processed

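Raw gene-level counts were deposited. The authors counted reads with HOMER over exons of GENCODE release 45 on hg38, on both strands, with 1 transcript kept per gene and no normalization, per the file headers. Reads were aligned with STAR 2.6.1c, and DESeq2 1.19.38 is also named, per the submitters' processing notes. Of 6 libraries in the header command, the 4 that have value columns were used. Exon lengths were taken as deposited in the same table.

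Genes were kept by filterByExpr (count minimum 10), which left 18781 of 63241. Scaling used trimmed means of M values. The two-sided quasi-likelihood test of edgeR 4.0.16 (glmQLFit and glmQLFTest, R 4.3.3) was run, and p-values were adjusted by Benjamini-Hochberg across every gene kept, with 0.05 as threshold. The test was also run on counts simulated with a spread shared by all genes. The fit to the data lets spread differ between genes, so this does not gauge the calls made here. SE is the absolute log2 fold change over the square root of F, and intervals use the t distribution with at least 9.02 degrees of freedom. Much of that number is borrowed from the spread of all genes, since 4 libraries in 2 groups give few per gene. The intervals are therefore narrower than the replicates of 1 gene alone would give. CPM is the count per 1e+06 of the scaled total of kept genes. An exact permutation test of 2 against 2 cannot go below p = 0.33 and was not run. Alternatives were RLE, upper-quartile or no scaling factors, other filters, DESeq2 1.42.0, limma-voom (limma 3.58.1), a replicate block, protein-coding genes alone and each library left out. The genes examined and all lists were chosen with earlier results of these data known. Named genes were the 10 members, a fixed set of direct partners, and up to 5 called genes per list by smallest adjusted p; some of these are not reported here. Start-site sequences came from RefSeq (GRCh38.p14), of which 250 upstream bases were used.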

Additional observations from a re-analysis of the deposited data

How the results depend on the processing

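The count of feedback genes that rose, 6 as reported, was 3 with no filter on low counts (DUSP5, DUSP6 and SPRY2) and between 4 and 6 when 1 library was left out. The count that fell, 1 as reported, was 0 with library totals alone, with no filter and with DESeq2, and between 0 and 1 when 1 library was left out. Over all genes the 5572 calls became 3187 with no filter, 3555 with DESeq2, and 3801 to 7446 when 1 library was left out. With library totals alone 59.5% of calls were higher, against 46.6% as reported, and the median of all genes was 0.04. Of the genes in the pathway lists, 55 of 110 tested were called as reported, 27 with no filter and 36 with DESeq2. Of all genes tested, 29.7% were called as reported (38.5% of those with a mean of at least 5 CPM). With no filter 3187 of 35109 genes were called, and with DESeq2 3555 of 18781. These settings for the lists were chosen after seeing the data. So was the removal of all counts of ENSG00000274021 from DUSP6. With 1 library left out its group has a single library, which is assumed to vary like the pair of the other group. The 2 pairs did not vary alike: the chi-square per degree of freedom was 6.94 between controls and 1.96 between shRNA libraries. Calls gained or lost in these fits may therefore also reflect which pair supplied the spread. Of the 10 feedback genes, 6 held the same place by CPM in the control order as per kilobase, so levels between genes depend on length. Signs turned for BRAF without control 1 or shRNA library 2 (range over left-out libraries -0.037 to 0.048), and for CCND1 without control 1 (range -0.29 to 0.13); the cause was not tested. Replicate numbers are shared between groups, but nothing says that they mark shared cultures. Same-numbered libraries deviated with a correlation of 0.27 over 11985 genes, and with 2 pairs this does not establish a pairing. With the replicate block 6749 genes were called, and 6 feedback genes rose and 1 fell.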

Other observations

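Growth factor receptors, which lie upstream of the feedback genes, moved in both directions: of 14 tested, 3 rose and 5 fell, with a median log2 fold change of -0.01. Of all genes tested, 13.8% rose and 15.8% fell (18.4% and 20.1% of those with a mean of at least 5 CPM). FGFR1 (0.31 ± 0.045) and IGF1R (0.30 ± 0.046) rose, and FGFR2 (-0.69 ± 0.076), FGFR3 (-0.84 ± 0.15) and PDGFRB (-0.67 ± 0.10) fell. EGFR did not pass the test (0.09 ± 0.051), at 161 to 182 CPM in all 4 libraries, and its value was 0.16 without control 1.

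The list of JNK and p38 kinases, the other substrates of DUSP1 and DUSP4, also held genes of their upstream kinases, MAP2K4 among them. Genes of this list moved in both directions as well. Of 10 tested, 2 rose and 3 fell, beside the same shares. The p38 gene MAPK11 rose (0.69 ± 0.13, from 6.77 and 8.46 to 11.4 and 13.2 CPM), whereas MAPK13 (-0.79 ± 0.25), MAPK14 (-0.17 ± 0.043) and the JNK kinase gene MAP2K4 (-0.23 ± 0.048) fell. The JNK gene MAPK9 rose by a small amount (0.19 ± 0.047). Without shRNA library 1 the calls of MAP2K4, MAPK9 and MAPK14 were lost, that of MAPK14 also without shRNA library 2. The call of MAPK13, with controls at 3.69 and 6.32 CPM, was lost without control 2, where the value was -0.36 (edgeR adjusted p = 0.129).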
